A study of Rattus norvegicus with 9 samples.

Results

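Cholesterol synthesis and the lipid genes placed under the same sterol control were followed through 31 genes listed by their role. They comprise 18 enzymes that build cholesterol, 5 genes of sterol sensing, 5 genes of fatty acid synthesis and 3 genes of sterol transport. Of the 31 genes, 29 had a probe set named in the array's probe table, and Hmgcs1 and Npc1 were not analysed here. All 29 passed the filter on low values, as did 9956 of the 14217 named genes on the array. The lowest signal of the 29 on any of the 9 arrays was 196, above the detection threshold of 123, which is the median of all probe set signals.

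RNA levels were read on Affymetrix Rat Genome 230 2.0 arrays, 3 for each of 3 cell types. P-RPC were papain-dissociated retinal cells of Sprague-Dawley (SD) rats at postnatal day 1, neither cultured nor sorted, so they hold every cell type of that tissue. rESC-RPC1 and rESC-RPC2 were both made from a single embryonic stem cell line, DA8-16, of the DA rat strain, and both were harvested on day 16. Stem cells were aggregated in medium with KnockOut Serum Replacement (KSR), Matrigel and the Wnt inhibitor IWR-1e, and fetal bovine serum was present from day 8. rESC-RPC1 grew attached from day 10 and were placed at day 14 in N2 medium with serum and without KSR. rESC-RPC2 stayed in suspension up to day 14, were then attached, and kept KSR and serum to the end. Strain, age and culture therefore cannot be told apart in a comparison with P-RPC, and neither can the time attached and the medium between the rESC-RPCs. The labels call the replicates biological, and the paper's methods say the RNA came from 3 independent experiments. Neither gives the litter or the differentiation run of an array, so p-values measure the spread between these samples.

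Cholesterol is built from acetyl-CoA through mevalonate and isoprenoid units, which are joined to squalene, closed into lanosterol and then trimmed step by step to cholesterol. When membrane sterol is low, the escort protein Scap carries the SREBP factors to the Golgi, where they are cut and released to switch on these enzymes. When sterol is high, Insig proteins hold Scap back in the endoplasmic reticulum. Srebf2 encodes the factor best known for the cholesterol enzymes, and Srebf1 the one best known for fatty acid synthesis. Sterol derivatives also activate the LXR receptors, which induce Srebf1 and the efflux pump Abca1. In the nervous system most cholesterol is made locally, in glia and in growing neurons.

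Values are signals, which are intensities on a linear scale made with the MAS 5.0 algorithm, and fold changes are differences of mean log2 signal, given with the standard error (SE). A gene was called higher or lower when limma's adjusted p, taken over all 9956 genes, was under 0.05 and the change was at least 2-fold. Because many genes differed between these cell types, counts are set beside the share of all tested genes that met the same rule.

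The enzymes of cholesterol synthesis were highest in rESC-RPC2. Against P-RPC, 6 of the 17 enzymes measured were called higher (Pmvk, Fdps, Tm7sf2, Msmo1, Sc5d and Dhcr7), where 10.7% of all genes were, and 0 were called lower, where 13.0% were. By adjusted p alone, with no fold threshold, 16 of the 17 were higher, against 30.3% of all genes. The exception, Ebp, was lower, as were 32.9% of all genes. The median log2 fold change of the 17 enzymes was 0.77, beside -0.02 for all tested genes.

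Between the rESC-RPCs, Idi1 and Fdft1 were called higher in rESC-RPC2, which is 2 of 17 enzymes beside 5.02% of all genes, and 0 enzymes were called lower, beside 9.25%. By adjusted p alone 15 enzymes were higher in rESC-RPC2, against 21.2% of all genes, and 0 were lower, against 27.0%. Lss and Ebp did not pass the test. The median of the 17 enzymes was 0.65, beside -0.03 for all genes. These differences between the rESC-RPCs were below 2-fold in 13 of the 15 enzymes, but larger than the spread between replicates by limma's test.

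In rESC-RPC1 the same enzymes did not move one way against P-RPC. Tm7sf2 and Sc5d were called higher, 2 of 17 beside 12.0% of all genes, and 0 were called lower, beside 9.56%. By adjusted p alone 6 were higher, against 30.0% of all genes, 3 were lower (Idi1, Hsd17b7 and Ebp), against 30.1%, and 8 did not pass. The median was 0.14, beside -0.01 for all genes. The 3 comparisons share arrays, since each cell type enters a pair of them, so their values are given side by side and not set against each other as separate evidence.

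**Figure D1:**
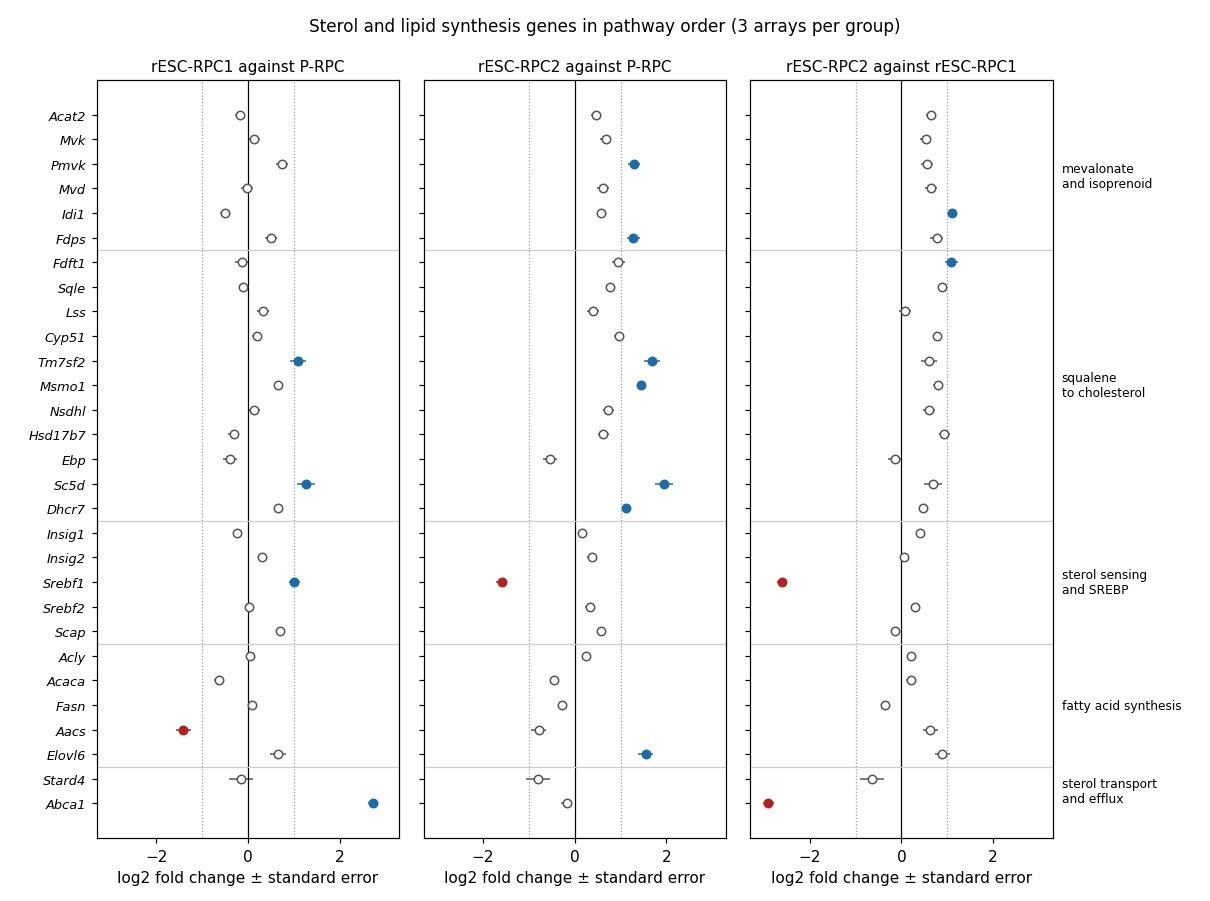
Log2 fold change with its standard error (horizontal axis) for the 29 genes in pathway order (vertical axis) in the 3 comparisons, 3 arrays per group. Filled blue points were called higher and filled red points lower, open points were not called, and dotted lines mark 2-fold. In rESC-RPC2 against P-RPC the enzymes lie to the right of 0 except Ebp, while Srebf1 lies at -1.60.

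Array by array, 15 of the 17 enzymes had all 3 rESC-RPC2 signals above the other 6 signals, an order found in 15.2% of all tested genes. Lss and Ebp did not. In 6 of the 17 (Pmvk, Fdps, Tm7sf2, Msmo1, Sc5d and Dhcr7) the groups formed 3 separate steps, with rESC-RPC2 above rESC-RPC1 and rESC-RPC1 above P-RPC, beside 5.06% of all genes. Averaged over the 17 enzymes, the log2 signal stood between 0.84 and 0.95 above the P-RPC mean on the rESC-RPC2 arrays. On the rESC-RPC1 arrays it stood 0.14, 0.18 and 0.39 above it, with replicate 3 the highest, and on the P-RPC arrays it lay between -0.02 and 0.02.

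Promoter sequence is shown for 6 genes on which these results turn. Msmo1, Fdps, Sc5d and Dhcr7 were called higher in rESC-RPC2, Ebp was the enzyme that ran the other way, and Abca1 had the largest difference of the 29 genes between the rESC-RPCs. Each run reads 5′ to 3′ toward the transcription start in RefSeq's annotation of build GRCr8, from 200 bases before it, and stops where the annotated gene begins. Capitals mark the CCAAT box, written ATTGG where it lies on the opposite strand, and the E-box CACGTG, and the Dhcr7 run holds neither. The runs lie at chr16:29746913-29747112 (plus strand), chr2:176804817-176805016 (minus), chr8:51538278-51538477 (minus), chr1:208444234-208444433 (plus), chrX:16971262-16971371 (plus) and chr5:72596564-72596673 (minus).
Msmo1: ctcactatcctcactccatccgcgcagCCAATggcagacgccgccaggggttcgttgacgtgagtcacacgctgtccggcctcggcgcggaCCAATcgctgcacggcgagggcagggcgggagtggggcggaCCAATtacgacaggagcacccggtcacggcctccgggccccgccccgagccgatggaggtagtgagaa
Fdps: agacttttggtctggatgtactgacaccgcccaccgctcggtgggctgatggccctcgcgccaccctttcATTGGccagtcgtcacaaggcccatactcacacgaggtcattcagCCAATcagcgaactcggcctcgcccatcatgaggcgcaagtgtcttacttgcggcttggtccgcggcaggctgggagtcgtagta
Sc5d: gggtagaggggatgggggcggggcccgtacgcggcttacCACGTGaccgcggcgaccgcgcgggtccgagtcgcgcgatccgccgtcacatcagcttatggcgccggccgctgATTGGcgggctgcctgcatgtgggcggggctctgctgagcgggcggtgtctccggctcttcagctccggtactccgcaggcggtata
Dhcr7: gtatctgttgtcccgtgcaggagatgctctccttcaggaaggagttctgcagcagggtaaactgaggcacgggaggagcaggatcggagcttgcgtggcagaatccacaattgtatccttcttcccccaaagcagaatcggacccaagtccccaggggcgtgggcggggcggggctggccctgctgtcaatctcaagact
Ebp: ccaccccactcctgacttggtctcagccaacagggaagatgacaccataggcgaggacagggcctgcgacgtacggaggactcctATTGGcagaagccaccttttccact
Abca1: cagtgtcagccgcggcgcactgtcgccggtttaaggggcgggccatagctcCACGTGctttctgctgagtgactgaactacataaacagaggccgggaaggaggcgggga

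RefSeq promoter windows, from 250 bases before the start to 50 after it, were found for 22 of the 29 genes, with a pair of windows for Srebf1. CCAAT, on either strand, stood in 17 of these 23 windows, while 37.5% of all 33469 rat windows of the same length hold it and 37.8% of the windows of tested genes do. Among the 14 cholesterol enzymes with a window, 11 held it, and Acat2, Cyp51 and Dhcr7 did not. The Msmo1 window had CCAAT starting at -173, -109 and -68, and those of Mvk and Nsdhl had 5 each. Of the 8 other genes with a window, 5 held it (Insig1, Insig2, Srebf1, Srebf2 and Acly).

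Exact matches to sterol response element letters were less common than CCAAT. CACNCCAC stood in the windows of Acat2, Ebp and Insig1, 3 of 23, beside 5.80% of all windows, and the longer form TCACNCCAC, which contains it, in 0 of 23, beside 1.12%. TCACNCNAC and TCACNTGA, other forms of this element, were in 0 of 23 windows, beside 2.48% and 3.93% of all windows. An exact direct repeat of AGGTCA with 4 bases between, a form that LXR receptors are known to bind, was in 0 of 23 windows. It was in only 2 of all 33469, so its absence from these windows says little. CACGTG stood in the windows of Abca1, Insig1, Sc5d and Scap, 4 of 23, beside 6.42%. All 7 motifs were searched on both strands, and a match of letters is no measurement of binding. Only the letters given were searched, with N for any base, so a window without a match may still hold a variant of the element.

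**Figure D2:**
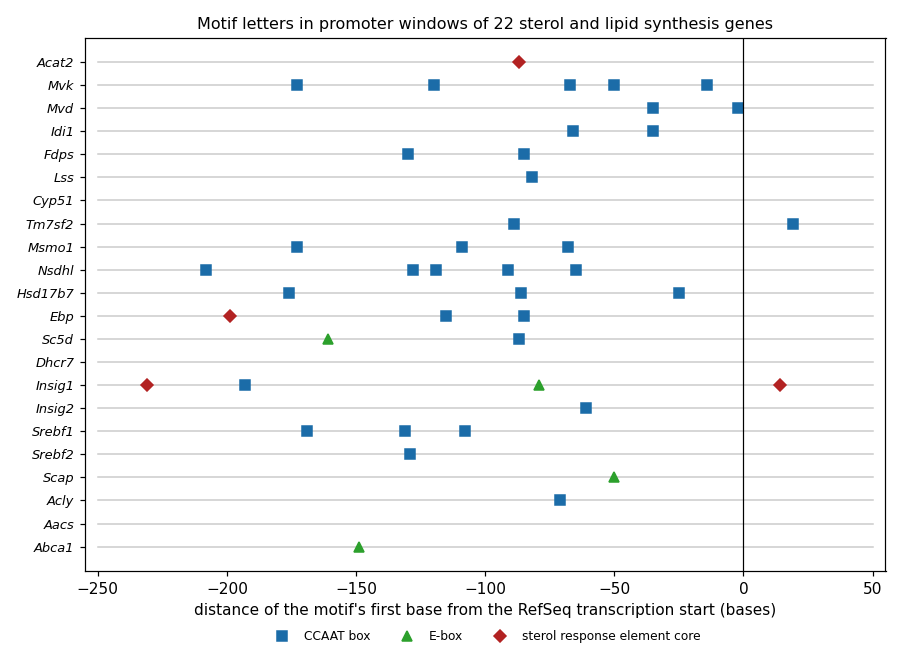
Distance in bases from the RefSeq transcription start (horizontal axis) of the first base of each motif match, for the 22 genes with a promoter window (vertical axis, pathway order). Squares mark CCAAT, triangles CACGTG and diamonds CACNCCAC, and the windows of Srebf1 are drawn on 1 line. CCAAT matches lie mostly before the start, with 5 each in Mvk and Nsdhl.

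The mevalonate and isoprenoid steps were measured with 6 genes, and all 6 were higher in rESC-RPC2 than in either other cell type by adjusted p, as were 30.3% of all genes against P-RPC and 21.2% against rESC-RPC1. Pmvk, which phosphorylates mevalonate phosphate, had signals of 600.1, 651 and 612 on the P-RPC arrays, 1109.8, 853 and 1198 on the rESC-RPC1 arrays and 1401, 1509.9 and 1697 on the rESC-RPC2 arrays. All rESC-RPC2 arrays lay above all rESC-RPC1 arrays, and those above all P-RPC arrays. The log2 fold change of Pmvk was 1.30 ± 0.13 SE (adjusted p = 1.22e-05) against P-RPC, a 2.47-fold difference, and 0.55 ± 0.13 SE (adjusted p = 0.00544) against rESC-RPC1. In rESC-RPC1 it was 0.75 ± 0.13 SE (adjusted p = 0.000624) against P-RPC.

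Fdps makes farnesyl diphosphate, the branch point to squalene and to protein prenylation, and its promoter carries 2 CCAAT boxes. Its signals were 3381, 3404 and 3625 on the P-RPC arrays, 4525, 4092 and 6422 on the rESC-RPC1 arrays and 8858, 7899.6 and 8451 on the rESC-RPC2 arrays. The groups did not overlap, but rESC-RPC1 replicate 3 stood well above its other replicates. Fdps was 2.42-fold higher in rESC-RPC2 relative to P-RPC (log2 1.28 ± 0.14 SE, adjusted p = 2.09e-05), and differed by 0.77 ± 0.14 SE (adjusted p = 0.0011) from rESC-RPC1.

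Idi1, the isomerase that makes dimethylallyl diphosphate, was lowest in rESC-RPC1. Its signals were 4649.6, 4605 and 4268 on the P-RPC arrays, 2793, 3225 and 3492 on the rESC-RPC1 arrays and 6638, 6063 and 7605 on the rESC-RPC2 arrays. The 3 groups did not overlap, and P-RPC lay between the rESC-RPCs. Idi1 was called in rESC-RPC2 against rESC-RPC1, at 2.14-fold higher (log2 1.09 ± 0.10 SE, adjusted p = 1.86e-05), while the differences from P-RPC, 0.58 in rESC-RPC2 and -0.51 in rESC-RPC1, passed the test below 2-fold. A second Idi1 probe set gave 1.20 between the rESC-RPCs, also called.

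The other 3 genes of these steps were not called in any comparison. Acat2, which condenses acetyl-CoA, Mvk, which starts mevalonate phosphorylation, and Mvd, which makes isopentenyl diphosphate, were 0.47, 0.67 and 0.62 in log2 fold change in rESC-RPC2 against P-RPC. Against rESC-RPC1 they were 0.64, 0.53 and 0.65. Each passed the test both times, with all 3 rESC-RPC2 arrays above the 6 others. For rESC-RPC1 and P-RPC the adjusted p-values of Acat2, Mvk and Mvd were 0.214, 0.35 and 0.872, and their arrays overlapped.

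From squalene to cholesterol, 10 of 11 genes were higher in rESC-RPC2 relative to P-RPC by adjusted p, beside 30.3% of all genes, and Ebp was lower, beside 32.9%. Fdft1, squalene synthase, had signals of 638, 553 and 772 on the P-RPC arrays, 546, 537 and 692 on the rESC-RPC1 arrays and 1204, 1218 and 1332 on the rESC-RPC2 arrays. rESC-RPC2 stood apart, and P-RPC and rESC-RPC1 overlapped. Fdft1 was 2.13-fold higher in rESC-RPC2 than in rESC-RPC1 (log2 1.09 ± 0.14 SE, adjusted p = 0.000145), and its 0.95 against P-RPC fell just short of 2-fold. A second Fdft1 probe set gave 1.01 between the rESC-RPCs, also called, but 0.31 in rESC-RPC2 and -0.71 in rESC-RPC1 against P-RPC, both past the test below 2-fold.

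Tm7sf2, a sterol C14-reductase, had signals of 231, 311 and 247 on the P-RPC arrays, 420.5, 611 and 671 on the rESC-RPC1 arrays and 851, 829 and 852 on the rESC-RPC2 arrays. The 3 groups did not overlap, although the rESC-RPC1 arrays were spread widely. Tm7sf2 was 3.24-fold higher in rESC-RPC2 (log2 1.69 ± 0.18 SE, adjusted p = 1.53e-05) and 2.13-fold higher in rESC-RPC1 (log2 1.09 ± 0.18 SE, adjusted p = 0.000357) relative to P-RPC. Without rESC-RPC1 replicate 3 the latter value was 0.96, below 2-fold. The difference between the rESC-RPCs was 0.60 ± 0.18 SE (adjusted p = 0.0164).

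Msmo1, the sterol methyl oxidase that removes the C4 methyl groups, gave signals of 2132, 2196 and 2373 on the P-RPC arrays, 3129.6, 3561 and 3895 on the rESC-RPC1 arrays and 5711, 5958 and 6592 on the rESC-RPC2 arrays. Each rESC-RPC2 array was above each rESC-RPC1 array, and each of those above P-RPC. Msmo1, whose promoter holds 3 CCAAT boxes, was 2.72-fold higher in rESC-RPC2 relative to P-RPC (log2 1.45 ± 0.09 SE, adjusted p = 5.81e-07). The step from rESC-RPC1 to rESC-RPC2 was 0.79 ± 0.09 SE (adjusted p = 7.85e-05), and that from P-RPC to rESC-RPC1 was 0.66 ± 0.09 SE (adjusted p = 0.000161).

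Sc5d, the desaturase that makes 7-dehydrocholesterol, had the largest log2 fold change of the 17 enzymes against P-RPC. Its signals were 600.3, 846 and 443 on the P-RPC arrays, 1499.8, 1326 and 1557 on the rESC-RPC1 arrays and 2278, 2142 and 2621 on the rESC-RPC2 arrays. P-RPC was spread widely, with replicate 2 the highest, but stayed below every rESC-RPC array. Sc5d was 3.85-fold higher in rESC-RPC2 (log2 1.94 ± 0.19 SE, adjusted p = 1.23e-05) and 2.40-fold higher in rESC-RPC1 (log2 1.26 ± 0.19 SE, adjusted p = 0.000281) relative to P-RPC, and 0.68 apart between the rESC-RPCs (adjusted p = 0.0149). Of its other probe sets, 1 gave 2.17 and 1.50 against P-RPC, both called, and 1 gave 0.88 and 0.41, past the test but not called.

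Dhcr7, the reductase of the last step of one branch, had signals of 1255, 1131 and 1158 on the P-RPC arrays, 1937, 1909 and 1757 on the rESC-RPC1 arrays and 2512, 2592 and 2614 on the rESC-RPC2 arrays. The groups formed 3 steps with little spread inside each. Dhcr7 was 2.18-fold higher in rESC-RPC2 relative to P-RPC (log2 1.12 ± 0.08 SE, adjusted p = 8.58e-07). In rESC-RPC1 it was 0.66 ± 0.08 SE (adjusted p = 4.04e-05), and between the rESC-RPCs 0.46 ± 0.08 SE (adjusted p = 0.000704).

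Ebp, the sterol isomerase that acts just before Sc5d, ran against the steps around it. Its signals were 507, 474 and 409.6 on the P-RPC arrays, 377, 293 and 392 on the rESC-RPC1 arrays and 311, 298 and 346 on the rESC-RPC2 arrays. Every P-RPC array lay above every rESC-RPC array, and the rESC-RPCs overlapped. Ebp differed from P-RPC by -0.54 ± 0.14 SE (adjusted p = 0.00742) in rESC-RPC2 and by -0.39 ± 0.14 SE (adjusted p = 0.0352) in rESC-RPC1, and between the rESC-RPCs by -0.15 ± 0.14 SE (adjusted p = 0.43). A single Ebp probe set is on the array, and its promoter window holds CACNCCAC and 2 CCAAT boxes, of which the run printed covers 1.

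Lss, the lanosterol synthase, depended on the probe set. On the brighter one the log2 fold change was 0.39 for rESC-RPC2 against P-RPC (adjusted p = 0.0236) and 0.08 against rESC-RPC1 (adjusted p = 0.667). The other was called both times, with a mean signal of 210.4 ± 7.80 in rESC-RPC2 (SD, n = 3) but 66.2 ± 14.4 in P-RPC and 86.3 ± 30.1 in rESC-RPC1, both under the detection threshold. This dimmer probe set passed the filter only through rESC-RPC2, so its calls are no separate support. Which of the Lss probe sets follows the transcript was not tested.

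The remaining squalene-to-cholesterol genes were Sqle, the epoxidase and a rate-controlling step, Cyp51, which removes the C14 methyl group, and Nsdhl and Hsd17b7, which act at C4 with Msmo1. In rESC-RPC2 their log2 fold changes were 0.77, 0.97, 0.73 and 0.63 against P-RPC, and 0.88, 0.78, 0.60 and 0.94 against rESC-RPC1. All 8 values passed the test below 2-fold, with every rESC-RPC2 array above the 6 others. Cyp51 was read by a probe set shared between transcripts, and its other probe set gave 0.11 against P-RPC, which did not pass, and 0.54 against rESC-RPC1, which did. Hsd17b7 in rESC-RPC1 against P-RPC was at the limit of the test (-0.31, adjusted p = 0.0499).

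**Figure D3:**
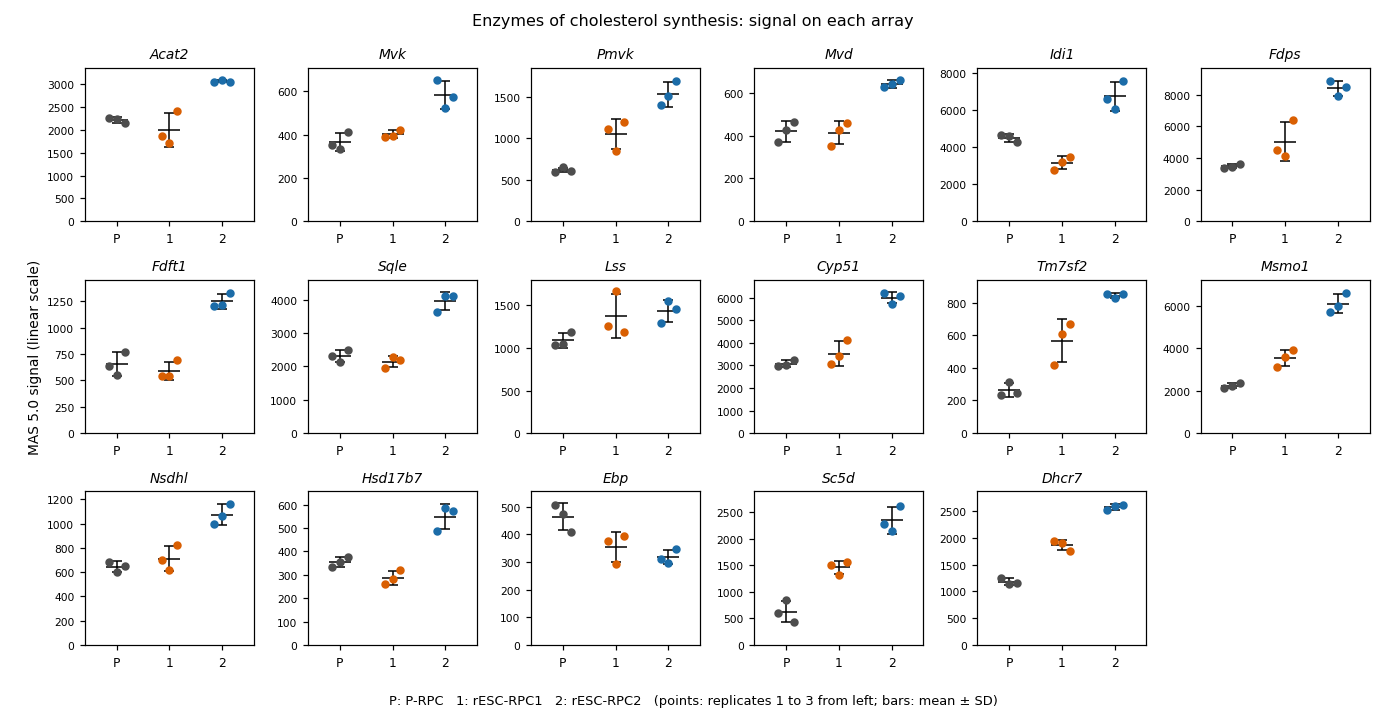
MAS 5.0 signal on a linear scale from 0 (vertical axis) on each array for the 17 enzymes of cholesterol synthesis in pathway order, with replicates as points and the mean ± SD of 3 arrays as bars. The rESC-RPC2 points lie above all others except for Lss and Ebp, and Idi1 is lowest in rESC-RPC1.

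Sterol sensing genes did not follow the enzymes as a group. Srebf1 had signals of 730.1, 663 and 688 on the P-RPC arrays, 1299, 1392 and 1501 on the rESC-RPC1 arrays and 249, 247 and 196 on the rESC-RPC2 arrays. The 3 groups lay far apart, with rESC-RPC1 highest and rESC-RPC2 lowest. Srebf1 was 2.01-fold higher in rESC-RPC1 relative to P-RPC (log2 1.01 ± 0.12 SE, adjusted p = 4.05e-05), 3.02-fold lower in rESC-RPC2 relative to P-RPC (-1.60 ± 0.12 SE, adjusted p = 1.46e-06) and 6.08-fold lower in rESC-RPC2 than in rESC-RPC1 (-2.60 ± 0.12 SE, adjusted p = 4.88e-07). The first of these values was 0.98 without P-RPC replicate 2 and 0.96 without rESC-RPC1 replicate 3, both below 2-fold. A second Srebf1 probe set had the same order, with a mean signal of 177 ± 14.8 in rESC-RPC1 (SD, n = 3), but its means of 94.8 ± 19.1 in P-RPC and 60.05 ± 3.53 in rESC-RPC2 lay under the detection threshold. Since this probe set passed the filter only through rESC-RPC1, its peak there is no separate support.

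Srebf2 differed little. Its signals were 843, 782 and 741 on the P-RPC arrays, 779, 854 and 777 on the rESC-RPC1 arrays and 965, 941 and 1064 on the rESC-RPC2 arrays, so that rESC-RPC2 lay above the others, which overlapped. The log2 fold change in rESC-RPC2 was 0.33 against P-RPC (adjusted p = 0.011) and 0.30 against rESC-RPC1 (adjusted p = 0.0227), and for rESC-RPC1 against P-RPC 0.03 (adjusted p = 0.821).

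Scap, the escort of the SREBPs, was higher in both rESC-RPCs relative to P-RPC, by 0.71 in rESC-RPC1 and 0.58 in rESC-RPC2 on the log2 scale, with no array of either group down in the P-RPC range. Insig1, which is itself switched on by SREBP, was 0.41 higher in rESC-RPC2 than in rESC-RPC1 (adjusted p = 0.00302), -0.24 for rESC-RPC1 against P-RPC (adjusted p = 0.0308) and 0.16 in rESC-RPC2 against P-RPC, which did not pass. Insig2 passed against P-RPC in both, at 0.31 and 0.37. None of these 3 genes reached 2-fold in any comparison.

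Fatty acid synthesis genes split. Elovl6, which lengthens palmitate to stearate, had signals of 759.9, 736 and 831 on the P-RPC arrays, 1129, 973 and 1648 on the rESC-RPC1 arrays and 2399.8, 2087 and 2301 on the rESC-RPC2 arrays. The groups formed the same steps as the enzymes above, with rESC-RPC1 replicate 3 above its other replicates. Elovl6 was 2.92-fold higher in rESC-RPC2 relative to P-RPC (log2 1.54 ± 0.16 SE, adjusted p = 1.93e-05), 0.89 above rESC-RPC1 and 0.65 in rESC-RPC1 against P-RPC. Its second probe set gave 1.49 against P-RPC in rESC-RPC2, also called.

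Aacs, which activates acetoacetate for lipid synthesis in the cytosol, ran the other way. Its signals were 706, 658 and 618 on the P-RPC arrays, 203, 240.1 and 313 on the rESC-RPC1 arrays and 339.8, 425 and 388 on the rESC-RPC2 arrays. P-RPC was highest, rESC-RPC1 lowest, and no groups overlapped. Aacs was 2.66-fold lower in rESC-RPC1 relative to P-RPC (log2 -1.41 ± 0.16 SE, adjusted p = 3.5e-05), and rESC-RPC2 differed by -0.78 from P-RPC and by 0.63 from rESC-RPC1, both past the test below 2-fold.

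Acaca, acetyl-CoA carboxylase, which commits carbon to fatty acids, was also lower in both rESC-RPCs, by -0.64 in rESC-RPC1 and -0.44 in rESC-RPC2 as log2 fold changes, with the P-RPC arrays above all others. Fasn, the fatty acid synthase, was -0.27 for rESC-RPC2 against P-RPC (adjusted p = 0.0114) and -0.36 against rESC-RPC1 (adjusted p = 0.00385), and did not pass in rESC-RPC1 against P-RPC. Acly, which supplies cytosolic acetyl-CoA to both sterols and fatty acids, was 0.25 and 0.21 in rESC-RPC2 against P-RPC and rESC-RPC1, both past the test. The median of the 5 fatty acid genes in rESC-RPC2 against P-RPC was -0.27, beside 0.65 for the mevalonate steps and 0.95 for the squalene steps.

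Abca1, the pump that loads cholesterol onto apolipoproteins, stood out in rESC-RPC1. Its signals were 262, 249 and 266 on the P-RPC arrays, 1871, 1538 and 1750.3 on the rESC-RPC1 arrays and 259, 216 and 215 on the rESC-RPC2 arrays. Every rESC-RPC1 array was several-fold above the rest, and P-RPC and rESC-RPC2 overlapped. Abca1 was 6.62-fold higher in rESC-RPC1 relative to P-RPC (log2 2.73 ± 0.12 SE, adjusted p = 5.41e-08) and 7.48-fold lower in rESC-RPC2 than in rESC-RPC1 (-2.90 ± 0.12 SE, adjusted p = 2.04e-07). Its 3 other probe sets were also highest in rESC-RPC1, with mean signals of 944, 181 and 219.5 there, but their P-RPC means of 88.1, 16.7 and 35.2 lay under the detection threshold, as did the rESC-RPC2 means of the last 2, at 46.2 and 19.4. The remaining probe set had 177 in rESC-RPC2. The probe sets with 181 and 219.5 passed the filter on low values only through rESC-RPC1, so their order is no separate support. For rESC-RPC2 against P-RPC the 4 probe sets did not share a direction, and only the brightest had both groups above the threshold.

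Stard4, a carrier of cholesterol between membranes, had signals of 505, 521 and 687 on the P-RPC arrays, 561, 322 and 736 on the rESC-RPC1 arrays and 282, 358 and 340.1 on the rESC-RPC2 arrays. rESC-RPC1 was spread over both other groups, and rESC-RPC2 lay below P-RPC. The log2 fold change in rESC-RPC2 against P-RPC was -0.80 ± 0.26 SE (adjusted p = 0.0206), while the other comparisons did not pass the test. A second Stard4 probe set gave 1.22 for rESC-RPC1 against P-RPC (adjusted p = 0.0136), and 0.50 for rESC-RPC2 against P-RPC (adjusted p = 0.253), so the direction against P-RPC depended on the probe set in both rESC-RPCs.

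**Figure D4:**
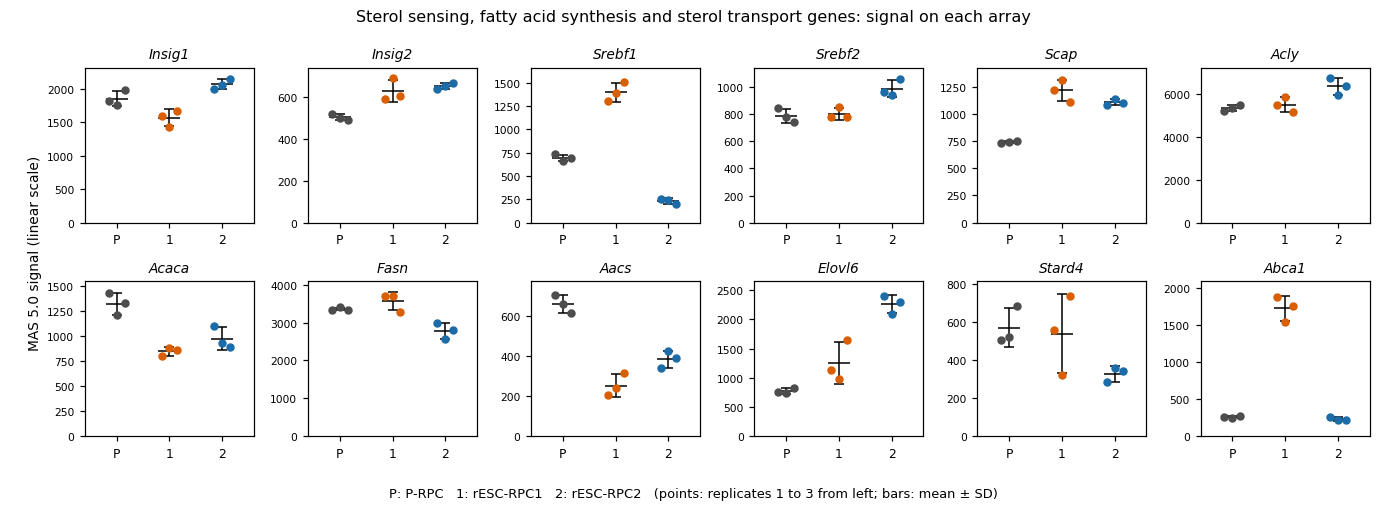
MAS 5.0 signal on a linear scale from 0 (vertical axis) on each array for the 12 genes of sterol sensing, fatty acid synthesis and sterol transport, with replicates as points and the mean ± SD of 3 arrays as bars. Srebf1 and Abca1 are highest in rESC-RPC1, Elovl6 rises from P-RPC to rESC-RPC2, and Aacs and Acaca are highest in P-RPC.

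Over all 29 genes, 7 were called higher and 1 lower in rESC-RPC2 against P-RPC, beside 10.7% and 13.0% of all genes. In rESC-RPC1 against P-RPC 4 were called higher and 1 lower, beside 12.0% and 9.56%, and between the rESC-RPCs 2 were called higher and 2 lower in rESC-RPC2, beside 5.02% and 9.25%. The 4 called higher in rESC-RPC1 were Tm7sf2, Sc5d, Srebf1 and Abca1, and the gene called lower was Aacs. The 2 called lower in rESC-RPC2 against rESC-RPC1 were Srebf1 and Abca1. All 3 rESC-RPC1 arrays lay above the 6 others for Srebf1 and Abca1 alone of the 29, beside 15.5% of all genes. All 3 P-RPC arrays lay above the 6 others for Ebp, Acaca and Aacs, beside 25.1% of all genes.

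Genes of neighbouring pathways were counted from lists chosen by function. Of 19 other sterol pathway genes and SREBP targets, 15 were tested. Against P-RPC, Scd, Elovl5 and Me1 were called higher and Thrsp, a lipogenic nuclear protein, lower in both rESC-RPCs, beside 12.0% of all genes higher and 9.56% lower in rESC-RPC1 and 10.7% and 13.0% in rESC-RPC2. Thrsp had means of 41.5 in rESC-RPC1 and 48.9 in rESC-RPC2, both under the detection threshold. It passed the filter only through P-RPC, where its mean was 152. Scd and Acss2 were called lower in rESC-RPC2 against rESC-RPC1, beside 9.25%, and 0 were called higher by limma, beside 5.02%. For 0 of the 15 were all rESC-RPC2 arrays above the 6 others, beside 15.2% of all genes, while for 6 all rESC-RPC1 arrays were, beside 15.5%. Against P-RPC the list's median was 0.55 for rESC-RPC1 and 0.23 for rESC-RPC2, and -0.27 in rESC-RPC2 against rESC-RPC1.

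Scd, the stearoyl-CoA desaturase, had a mean signal of 117 ± 27.5 in P-RPC, which compares with 602 ± 45.1 on rESC-RPC1 arrays and 230.4 ± 12.8 on rESC-RPC2 arrays (SD, n = 3). The P-RPC mean lay under the detection threshold of 123, so no fold change against it is given, and rESC-RPC2 differed from rESC-RPC1 by -1.38 on the log2 scale. Acss2, which makes acetyl-CoA from acetate, was 0.55 for rESC-RPC1 against P-RPC and -1.04 between the rESC-RPCs. Elovl5, a fatty acid elongase, was 1.42 and 1.11 against P-RPC in rESC-RPC1 and rESC-RPC2, and Me1, which supplies NADPH for lipid synthesis, was 1.98 and 2.04.

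The other branches from isoprenoids, to prenylated proteins, dolichol and ubiquinone, were measured with 9 of 10 listed genes, and 0 were called by limma in any comparison. By adjusted p alone, 2 of the 9 were higher and 3 lower in rESC-RPC2 against P-RPC, beside 30.3% and 32.9% of all genes. In rESC-RPC1 against P-RPC 1 was higher and 3 lower, beside 30.0% and 30.1%, and between the rESC-RPCs 1 was higher and 1 lower, beside 21.2% and 27.0%. Ggps1, which takes farnesyl diphosphate to geranylgeranyl diphosphate, was -0.90 in rESC-RPC2 and -0.66 in rESC-RPC1 against P-RPC. Medians in the order of these comparisons were -0.25, -0.05 and -0.13.

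Cholesterol uptake, storage and efflux were followed with 18 further genes, of which 15 were tested. Soat1, Npc2, Vldlr and Cyp46a1 were called higher in rESC-RPC1 relative to P-RPC, and Abcg1, Abcg4 and Mylip lower, which is 4 and 3 of 15 beside 12.0% and 9.56% of all genes. In rESC-RPC2 against P-RPC, 1 was called higher (Cyp46a1) and 3 lower (Abcg1, Mylip and Apoe), beside 10.7% and 13.0%. Mylip had means of 50.4 in rESC-RPC1 and 40.4 in rESC-RPC2, both under the detection threshold. It passed the filter only through P-RPC, where its mean was 368. Abcg4 in rESC-RPC1 (109) and Cyp46a1 in P-RPC (72.3) also had means under the threshold. Between the rESC-RPCs 5 were called lower in rESC-RPC2 (Apoe, Soat1, Npc2, Scarb1 and Abcg1), beside 9.25%, and 0 were called higher by limma, beside 5.02%. Apoe, the apolipoprotein that carries lipids between cells of the nervous system, had mean signals of 589 ± 37.1 in P-RPC, which compares with 987 ± 404 on rESC-RPC1 arrays and 110.01 ± 45.0 on rESC-RPC2 arrays (SD, n = 3). The last lay under the detection threshold, and the adjusted p between the rESC-RPCs was 3.8e-05 by limma. Soat1, which stores cholesterol as esters, was 2.16 in rESC-RPC1 against P-RPC and -1.63 in rESC-RPC2 against rESC-RPC1, and Npc2, which carries cholesterol out of lysosomes, was 1.80 and -1.12. Vldlr, a lipoprotein receptor, was 1.30 and -0.63. The LXR target Abcg1 was highest in P-RPC, unlike Abca1, with mean signals of 672 ± 85.2 there, 194 ± 44.2 on rESC-RPC1 arrays and 94.3 ± 29.1 on rESC-RPC2 arrays (SD, n = 3), the last under the detection threshold. Both genes were called lower in rESC-RPC2 against rESC-RPC1.

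**Figure D5:**
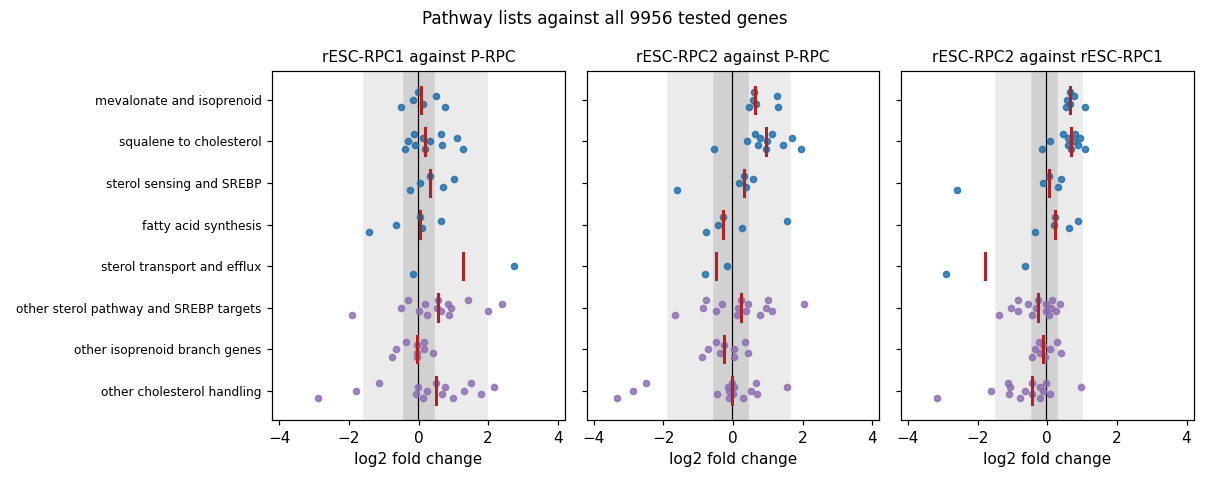
Log2 fold change (horizontal axis) of each gene, as points, in the 5 gene groups described in full and the 3 neighbouring lists (vertical axis), for the 3 comparisons, with each list's median as a red bar. Shading spans the middle 50% (dark) and 90% (light) of all 9956 tested genes, and a vertical line marks their median. In rESC-RPC2 against rESC-RPC1 the mevalonate and squalene medians are 0.64 and 0.68, while those of the other sterol targets and of cholesterol handling are -0.27 and -0.45.

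Markers of cell types differed between the groups together with these genes. The 8 retinal progenitor markers measured had summed signals of 58925 to 62959 on P-RPC arrays, 18412 to 25497 on rESC-RPC1 arrays and 16225 to 17126 on rESC-RPC2 arrays. Among them, Pax6 and Rax were at 118 ± 74.3 and 249 ± 124 on rESC-RPC1 arrays and 84.7 ± 24.0 and 141 ± 74.2 in rESC-RPC2 (SD, n = 3), beside 13973 ± 423 and 4623 ± 69.6 in P-RPC. The Pax6 means of both rESC-RPCs lay under the detection threshold, while the paper reported Pax6 and Rax protein staining in both. Its quantitative RT-PCR also found RNA of both genes induced in rESC-derived cells, at levels below P-RPC. Sox2 ran the other way, at 9368 ± 1383 in rESC-RPC1, 6468 ± 181 in rESC-RPC2 and 4936 ± 32.7 in P-RPC. Lhx2, Six6, Hes1 and Hes6 had lower means than in P-RPC but stayed above the threshold. Of 5 neuron markers, all were detected in each group, and their summed signal ran from 38886 to 43015 in rESC-RPC2, above 14315 to 22200 in rESC-RPC1 and 17779 to 20457 in P-RPC. The glial marker Gfap was at 3689 ± 194 in rESC-RPC1, 979 ± 442 in rESC-RPC2 and 59.1 ± 10.4 in P-RPC, but of 7 Müller glia and astrocyte markers 5, 3 and 3 were detected, with summed signals of 8524 to 15248, 4478 to 5668 and 10943 to 12103. Of 7 mesenchyme and smooth muscle markers, 5 were detected in each rESC-RPC and 2 in P-RPC, with summed signals of 17509 to 42935 in rESC-RPC1, 9200.2 to 16695 in rESC-RPC2 and 663 to 751 in P-RPC. The collagens Col1a1, Col1a2 and Col3a1 had higher means in rESC-RPC1 than in rESC-RPC2. Tagln (3993 ± 3292 and 6914 ± 2237) and Acta2 (869 ± 784 and 1539 ± 604) had lower means there, with wide spread (SD, n = 3). Of 6 photoreceptor markers 5 were detected in P-RPC and 1 in each rESC-RPC, and red cell and lens genes were detected in P-RPC alone, with summed lens signals in P-RPC from 953 to 44973. Summed signals of 3 pigment epithelium markers were 1120 to 1482 in P-RPC, 1065 to 4721 in rESC-RPC1 and 141 to 148 in rESC-RPC2. Those of 3 endothelium markers were 6469 to 6869, 449 to 1031 and 162 to 191 in the same order. Of 5 microglia markers 2 were detected in P-RPC and 0 in each rESC-RPC. In bulk RNA, fewer cells of a type and less RNA per cell cannot be told apart, and the part of these markers in the enzyme, Srebf1 and Abca1 differences was not tested.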

How the data were processed

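RNA of the 3 cell types was hybridised to 9 Affymetrix Rat Genome 230 2.0 arrays, 3 per group, and groups were taken from the sample labels. The deposited values are intensities: the authors made MAS 5.0 signals per probe set in GeneSpring, without pooling replicates, and the version of MAS5 is not stated. The signals are on a linear scale with a trimmed mean of 500.2 on every array. No scan date or batch is given in the sources used here. The number of arrays limits the precision.

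From these deposited intensities, values below a floor of 1 were raised to it before the log2 step, with no further scaling. Control probe sets (57) and probe sets with several gene symbols or none were left out. Genes kept had at least 3 of 9 arrays at or above the median of all values (123), and 1 probe set per gene, that with the highest mean log2 signal, was used. Members were matched by symbol and Entrez ID, and all 29 were found in the RefSeq gene table. limma 3.58.1 in R 4.3.3 fitted 1 mean per group over all 9 arrays with a variance trend, and p-values were adjusted by Benjamini-Hochberg over 9956 genes. The code was tested on simulated data first. The 9 same-number pairs of arrays correlated at -0.04 to 0.27 in their deviations from the group means, with 1 over 0.1, so samples were treated as unpaired.

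The genes and lists were chosen with earlier results of these data known. Members called in any comparison are given in full and the others by counts or fold changes. From each neighbouring list, values are given for at most 4 called genes with the smallest adjusted p, and Ggps1, Thrsp and the other genes named there were chosen after their values were seen. Alternatives were other scalings, filters, floors, probe sets, variance models, the methods' t-test, a replicate block and leaving out each array. RefSeq promoter windows (GRCr8) were searched for motif letters with Python 3.11.15.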

Additional observations from a re-analysis of the deposited data

Results flagged for a closer look

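Srebf1 met the rule for a difference between groups. Against P-RPC it was called higher in rESC-RPC1 (log2 fold change 1.01) and lower in rESC-RPC2 (-1.60), and the difference between these effects, which is the comparison of rESC-RPC2 with rESC-RPC1, was itself tested by limma at a log2 fold change of -2.60 (adjusted p = 4.88e-07, lower in 3 of 3 arrays). Its second probe set was highest in rESC-RPC1 too, with P-RPC and rESC-RPC2 means under the detection threshold. That probe set passed the filter only through rESC-RPC1, so it is no separate support.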

How the results depend on the processing

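No fold change of the 29 genes that was called in the reported setting turned its sign under any alternative. Values not called there could turn: other probe sets called Stard4 higher in rESC-RPC1 and Abca1 higher in rESC-RPC2, both against P-RPC. Changes of scaling moved the median of all genes by less than 0.1 on the log2 scale. With no fold threshold the counts rose to 11 higher and 6 lower members (5989 genes in all) in rESC-RPC1 against P-RPC, 21 and 6 (6292 genes) in rESC-RPC2 against P-RPC, and 20 higher (4805 genes) in rESC-RPC2 against rESC-RPC1, by construction. By adjusted p alone, the 20 members higher in rESC-RPC2 against rESC-RPC1 became 14 with the methods' t-test after Benjamini-Hochberg adjustment. They were 17 to 20 when 1 array was left out. Members lower by adjusted p alone in rESC-RPC1 against P-RPC, 6 as reported, were 3 under median centring and 3 with the methods' t-test after Benjamini-Hochberg adjustment. Leaving out 1 array at a time gave 3 to 7 of them, with 3 without P-RPC replicate 1 or without rESC-RPC1 replicate 2. Members called higher in rESC-RPC1 against P-RPC were 2 to 4, with 2 without rESC-RPC1 replicate 3, and in rESC-RPC2 against rESC-RPC1 2 to 4, with 4 without the same array, when Hsd17b7 (1.02) and Elovl6 (1.11) passed 2-fold. Hsd17b7 did so too without rESC-RPC2 replicate 1 (1.02). In rESC-RPC2 against P-RPC they were 7 to 9. Fdft1 and Cyp51 passed 2-fold there without P-RPC replicate 3 (1.07 and 1.00) and under median centring (1.03 and 1.05). The causes were not tested. With the replicate block, the numbers being shared names and not a pairing, members called higher were 4, 7 and 2 in the 3 comparisons in the order above, and called lower 1, 1 and 2, and all genes called were 2148, 2363 and 1426 beside 2144, 2361 and 1421 without it. By adjusted p alone it moved the members lower in rESC-RPC2 against rESC-RPC1 from 3 to 4, and the other member counts were equal. On other probe sets, calls changed for Lss, Sc5d, Srebf1, Stard4 and Abca1, and several of these probe sets lay under the detection threshold in 1 or more groups. Those of Lss and Srebf1, and 1 of those of Abca1, passed the filter through 1 cell type alone. The 3 arrays per group limit the precision.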

Other observations

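The desaturases Scd2 and Fads1 had their highest signals in rESC-RPC1. Scd2, the main brain stearoyl-CoA desaturase, averaged 8641 ± 439 on P-RPC arrays, 16615 ± 331 on rESC-RPC1 arrays and 9361 ± 157 on rESC-RPC2 arrays (SD, n = 3), with log2 fold changes of 0.94 (rESC-RPC1 against P-RPC) and -0.83 (rESC-RPC2 against rESC-RPC1). Fads1, a desaturase of polyunsaturated fatty acids, stood at 2959 ± 84.9, 5371 ± 217 and 3973 ± 21.9 in the same order. Both genes passed limma's test in these comparisons below 2-fold, and both were chosen after their values were seen.

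Lipa, the lysosomal enzyme that frees cholesterol from its esters, averaged 647 ± 97.4 on P-RPC arrays, 1117 ± 283 on rESC-RPC1 arrays and 637 ± 47.3 on rESC-RPC2 arrays, a difference of -0.78 in rESC-RPC2 against rESC-RPC1 (adjusted p = 0.00454 by limma). Cyp46a1, which turns cholesterol into 24-hydroxycholesterol in neurons, was at 72.3 ± 46.1, 181 ± 41.9 and 186 ± 23.2 in the same order. It was called higher in both rESC-RPCs, and its P-RPC mean lay below the detection threshold of 123.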
